A study of Mus musculus with 2 samples.

Results

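B7 family costimulators and checkpoint ligands, together with the costimulatory receptor gene Cd40 and the checkpoint receptor gene Havcr2, were measured in untreated and IL-4-treated bone marrow-derived macrophages (BMDMs). The 9 genes were Pdcd1lg2, Cd274, Cd80, Cd86, Icosl, Cd276, Vtcn1, Cd40 and Havcr2, and they were read from every probe whose RefSeq accession belongs to one of them, 10 probes among the 39424 used and 9 genes among 32448 on the array. They were chosen with these values known, so their levels and differences are a description and carry no test. The macrophages came from 8-week-old male mice with the floxed Crif1 f/f genotype, which both conditions share, and were grown from bone marrow with M-CSF. One culture condition was untreated (BMDM_UN_18hr) and the other received IL-4 for 18 h (BMDM_IL-4_18hr). The IL-4 concentration used for the arrays is not given in the sources used here, and neither is the number of mice behind each RNA. Each condition was measured on 1 single-colour array, and both arrays lay on 1 slide and carry the same scan time.

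B7 proteins are surface ligands on antigen-presenting cells that set the outcome when a T cell meets its antigen. CD80 and CD86 deliver the costimulatory signal through CD28 and are also bound by the inhibitory receptor CTLA-4, while ICOSL engages ICOS. PD-L1, encoded by Cd274, and PD-L2, encoded by Pdcd1lg2, bind PD-1 and restrain T cells, and PD-L2 is a known marker of macrophages activated by IL-4. CD40 is a TNF receptor family member through which T cells carrying CD40 ligand activate macrophages and dendritic cells, and TIM-3, encoded by Havcr2, is an inhibitory receptor of T cells that myeloid cells also carry. IL-4 acts through the transcription factor STAT6, which binds palindromic elements with TTC at one end and GAA at the other.

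The promoters of the gene with the largest difference, of its chromosomal neighbour and of the member with an at least 2-fold lower signal after IL-4 are given first, because the STAT6-type element was found in 1 of the 7 member promoters at hand, that of Pdcd1lg2. They run from 250 bases before to 50 bases after the annotated start, come from RefSeq on GRCm38.p6, and lie on the + strand at chr19:29410669-29410968 for Pdcd1lg2, chr19:29367188-29367487 for Cd274 and chr10:78069118-78069417 for Icosl. Capitals mark a match to TTC, any 4 bases, GAA, the STAT6-type element.
Pdcd1lg2: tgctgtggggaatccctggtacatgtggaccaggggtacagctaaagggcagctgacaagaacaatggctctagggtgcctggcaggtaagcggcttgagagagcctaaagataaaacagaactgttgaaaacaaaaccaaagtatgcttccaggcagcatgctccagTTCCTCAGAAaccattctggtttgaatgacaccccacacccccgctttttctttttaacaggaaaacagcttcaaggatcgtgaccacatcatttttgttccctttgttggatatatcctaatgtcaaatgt
Cd274: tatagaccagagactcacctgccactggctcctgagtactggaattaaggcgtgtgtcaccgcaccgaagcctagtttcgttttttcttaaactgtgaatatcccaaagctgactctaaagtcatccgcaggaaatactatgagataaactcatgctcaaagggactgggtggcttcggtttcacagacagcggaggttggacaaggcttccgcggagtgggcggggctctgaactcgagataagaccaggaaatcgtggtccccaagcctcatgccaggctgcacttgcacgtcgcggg
Icosl: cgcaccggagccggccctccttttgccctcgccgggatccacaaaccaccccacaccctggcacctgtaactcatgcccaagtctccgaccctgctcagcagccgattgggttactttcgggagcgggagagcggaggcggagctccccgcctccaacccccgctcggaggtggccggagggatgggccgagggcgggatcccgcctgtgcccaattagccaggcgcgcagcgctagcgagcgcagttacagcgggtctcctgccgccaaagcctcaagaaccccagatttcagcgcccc
The match in Pdcd1lg2, TTCCTCAGAA, runs from 82 to 73 bases before the start, at chr19:29410837-29410846. This element reads the same on both strands and was found in 6.95% of the 32851 promoters of that table, against 1 of the 7 member promoters it holds, which are those of Pdcd1lg2, Cd274, Cd80, Icosl, Cd276, Vtcn1 and Havcr2. The related STAT spacing TTC, any 3 bases, GAA was found in 8.30% of all promoters, the interferon regulatory factor motif GAAA, any 2 bases, GAAA in 3.44% and the NF-kB motif GGGA, any base, TTTCC in 0.411%, on either strand, and each in 0 of the 7. The motifs can overlap in other promoters, and with 1 match among the members none did here. A match describes the letters and not binding. The promoters differed in composition, with a GC content of 46.0% for Pdcd1lg2, 52.7% for Cd274 and 68.0% for Icosl, where the median of all promoters was 52.7%.

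Values below are background-subtracted spot intensities in arbitrary units, each given with the error that the scanner software assigns to the spot. Differences are IL-4 minus untreated on the log2 scale, with each array centred on its own 75th percentile. A spot that the software flags as well above background is called detected. The error printed beside a difference is the median SD between spots for probes printed in 10 spots whose signal is near the mean log2 signal of the member over both arrays. It covers the spots of an array and not the spread between cultures, for which there is no replicate. The software's own error of a single difference is wider, between 0.20 and 0.22 for each of the 7 members detected on both arrays. Intensities of different probes are not compared with each other, because probes differ in brightness for the same amount of RNA. Among spots for genes, 59.8% were detected without IL-4 and 57.4% with it. A difference in a bulk culture can come from more cells that carry a transcript or from more RNA per cell, and these cannot be told apart here.

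The cultures carried the marks of their labels. All 4 M2 markers, Arg1, Retnla, Chil3 and Mrc1, had a higher signal after IL-4, by at least 5.33-fold. Of the macrophage markers, 5 of 5 with a probe were detected on both arrays (Csf1r, Adgre1, Itgam, Mertk and Fcgr1), with log2 differences of 0.09 for Csf1r, 0.17 for Adgre1, -0.71 for Itgam, -1.14 for Mertk and -1.23 for Fcgr1 and a median of -0.71. These are values of the brightest probe of each gene. The dimmer Itgam probes had -0.24 and -0.27, so the value of Itgam, and with it the median, depends on the probe. The summed signal of the 5 markers, before scaling, was 182946 untreated and 202904 after IL-4, of which Csf1r alone gave 146026 and 166510. Sums here and below add unscaled signals of different probes. They are thus set mostly by the brightest probes and also carry the brightness of each array.

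Of the 9 genes, 8 were detected on at least 1 array and 7 on both. After IL-4, 4 of them, Pdcd1lg2, Cd40, Cd274 and Cd86, had an at least 2-fold higher signal, and 1, Icosl, had an at least 2-fold lower signal. Detection on at least 1 array held for 60.8% of all genes on the array, 19743 in number, and of these 2.86% had a signal higher by 2-fold or more, 4.47% a lower one, and 7.33% either. Many of these calls rest on a bound, with 1 array not detected: 201 of the 564 higher genes and 613 of the 883 lower ones. The larger number of lower genes therefore includes many dim ones. The members were chosen on this same contrast, so nothing is read from these shares. The split over all genes moves with scaling, from 39.0% higher among the genes past 2-fold here to 59.5% with median scaling and 69.0% with spike-in scaling, while 519 were higher and 1008 lower with the percentile taken over probes that both arrays detected. Cd80, Cd276 and Havcr2 lay within 2-fold, and Vtcn1 was detected on neither array. The 7 members measured on both arrays ranged from -2.16 to 2.70, with a median of 0.33, where all 17242 genes measured on both arrays had a median of -0.01 and a 5th to 95th percentile range from -0.62 to 0.56.

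**Figure D1:**
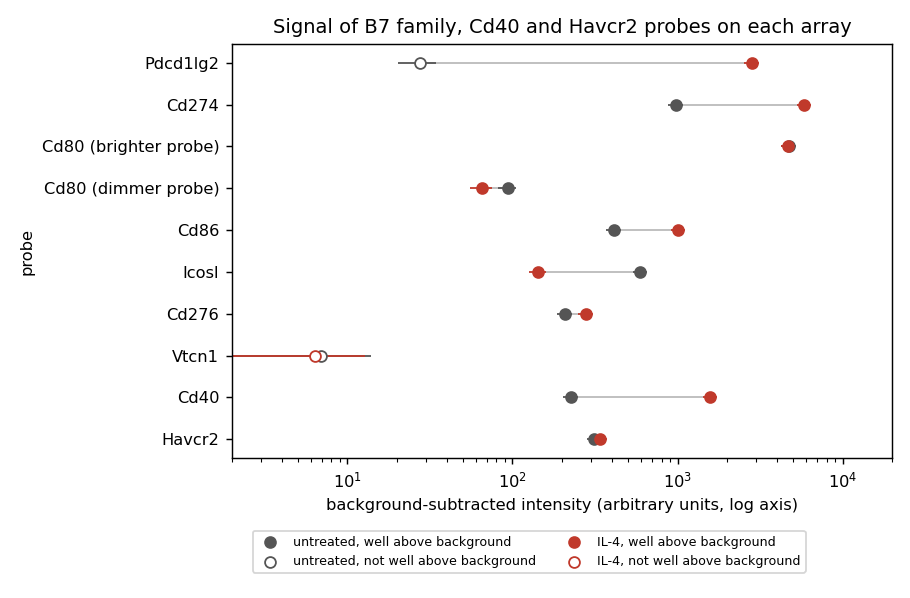
Background-subtracted intensity (log axis, arbitrary units) of the 10 probes on the untreated array (grey) and the IL-4 array (red), 1 array each, with bars for the error assigned by the scanner software and open circles where a spot was not detected. Pdcd1lg2 goes from 27.4 to 2813, the spots of the brighter Cd80 probe coincide, and Icosl goes the other way.

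The PD-1 ligands are described first. Pdcd1lg2 had a signal of 27.4 ± 7.18 in untreated BMDMs, which was not detected, and of 2813 ± 281 in IL-4-treated BMDMs. Its raw spot brightness before background subtraction was 91.0 against 3040.0 pixel units. Because the untreated spot gives only a ceiling, the change is a lower bound, taken against the lowest detected signal of the untreated array, 29.2. By this bound Pdcd1lg2 was at least 89.9-fold higher after IL-4, a log2 difference of at least 6.49. No spot SD is given for it, since the spots lie at the dim and the bright end, and the software's error of the difference was 0.40. It stood at place 3 among the 19703 genes with a difference, below Retnla at 9.22 or more and Arg1 at 7.76, and the next genes with a symbol below it were Il4i1 at 6.04, a secreted amino acid oxidase named for its induction by IL-4, and Ccl24 at 4.90, an eosinophil attractant. This likeness is a place in 1 contrast of 2 arrays, and the order mixes bounds with measured values. An entry that matched no symbol, with a difference of 6.17 or more, lay between Pdcd1lg2 and Il4i1. Which gene it reads was not resolved. The size of the bound depends on how dim signal is treated: with the normexp background correction in place of the software's, the log2 difference was 4.63.

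Cd274 had a signal of 978 ± 98.1 in untreated and 5863 ± 586 in IL-4-treated BMDMs, detected on both arrays. It was 5.59-fold higher after IL-4, a log2 difference of 2.48 (spot SD 0.05). The transcript was thus present without IL-4, where that of Pdcd1lg2 was not detected. The bound for Pdcd1lg2 exceeded the difference of Cd274 by 4.01 on the log2 scale. No test of that gap is possible with 1 array per condition.

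Cd274 and Pdcd1lg2 are next to each other among the protein-coding genes of chromosome 19 in the GRCm38.p6 annotation, so the genes beside them were read too, chosen by their place after the values of the pair were known. Of the 8 genes, 4 on each side of the pair, 6 were measured on both arrays. Jak2, which encodes the kinase that signals for many cytokine receptors, was 2.27-fold higher after IL-4, a log2 difference of 1.18. Insl6, an insulin-like peptide gene next to Jak2, had 0.90, Plgrkt, a plasminogen receptor gene that lies beside Cd274, had 0.60, and Ric1, on the far side of Pdcd1lg2, had 0.73. Beyond Ric1, Ermp1 had -0.27 and 9930021J03Rik had -0.10, and Rln1 and Mlana were detected on neither array. The difference was thus at least 2-fold for 1 of the 6 neighbours and above the 95th percentile of all genes for 4 of them.

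**Figure D2:**
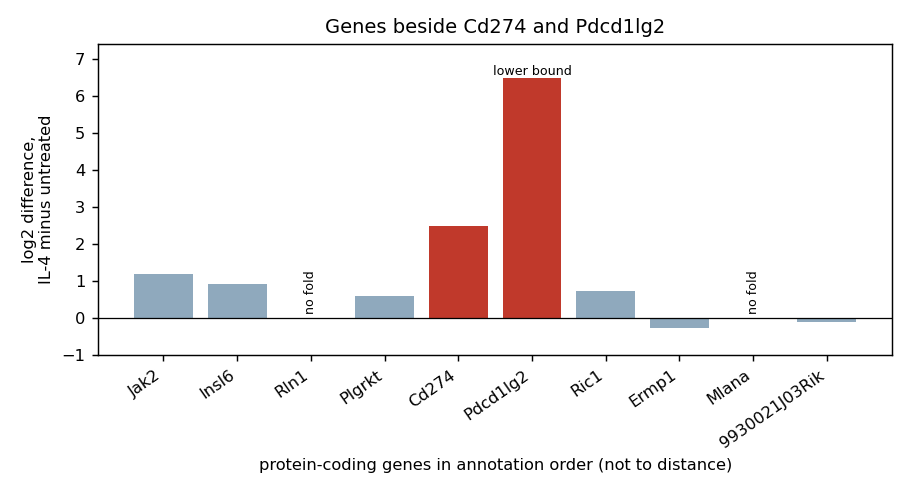
Log2 difference, IL-4 minus untreated, of the protein-coding genes around Cd274 and Pdcd1lg2 (red) in the order of the annotation, not spaced by distance, from 1 array per condition. The bar of Pdcd1lg2 is a lower bound of 6.49, and the genes from Jak2 to Ric1 that were measured lie at 0.60 or above.

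The ligands of CD28 and CTLA-4 had unlike values. Cd86 had a signal of 412 ± 41.7 in untreated and 1010.1 ± 101 in IL-4-treated BMDMs, 2.29-fold higher, with a log2 difference of 1.19 (spot SD 0.06). Cd80, the other ligand of the same receptors, had a signal of 4715 ± 472 in untreated and 4667 ± 467 in IL-4-treated BMDMs at its brighter probe, a log2 difference of -0.11 (spot SD 0.05). The arrays therefore overlap within the software's error for that probe. The difference of Cd86 exceeded that of Cd80 by 1.31 on the log2 scale, a gap between single cultures that was not tested. Cd80 was the only member with 2 probes matched by RefSeq accession. Its dimmer probe had 93.4 ± 12.0 in untreated and 65.2 ± 9.54 in IL-4-treated BMDMs, a log2 difference of -0.62 with a spot SD of 0.19 at that signal, so the probes differed in size and the lower value at the dimmer probe is not seen at the brighter one. The sign of the brighter probe also depends on scaling, with 0.10 after median scaling and 0.21 after scaling on spike-in controls. Cd86 stayed past 2-fold under all 11 other settings, from 1.099 with normexp to 1.51 with spike-in scaling. Its lowest value and the 1.19 reported exceed the 2-fold line by less than the software's error of that difference, 0.205. Cd86 thus lies close to that line.

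Icosl, the ligand of ICOS, was the only member with an at least 2-fold lower signal. It had 595 ± 60.1 in untreated and 142 ± 16.1 in IL-4-treated BMDMs, detected on both arrays. The signal after IL-4 was 4.48-fold lower, a log2 difference of -2.16 (spot SD 0.08), and Icosl stood at place 67 from the bottom of the 19703 genes in order of difference. The value lay between -2.22 and -1.74 under the 11 other settings. Those that choose among probes could not move it, and the authors' values follow the scanner's. Its direction held under the other scalings and under normexp. Its single probe gives no check by another part of the transcript.

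The remaining B7 members showed smaller values. Cd276, which encodes B7-H3, had 208 ± 21.9 in untreated and 279 ± 28.6 in IL-4-treated BMDMs, a log2 difference of 0.33 (spot SD 0.09) that lies inside the 5th to 95th percentile range of all genes. It stayed positive under the other settings, from 0.14 to 0.65. Vtcn1, which encodes the inhibitory ligand B7-H4, had 6.94 ± 6.91 in untreated and 6.41 ± 6.38 in IL-4-treated BMDMs, so its signal was about as large as its error on both arrays and no fold is given.

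Cd40 had the largest measured difference among the members detected on both arrays in the setting reported. Its signal was 227 ± 23.5 in untreated and 1578 ± 158 in IL-4-treated BMDMs, 6.50-fold higher, with a log2 difference of 2.70 (spot SD 0.06). It differed from that of Cd274 by 0.22, about the software's error of a single difference. With normexp the value for Cd40 was 2.27, below the 2.35 of Cd274, so the order of these genes depends on the background correction. Havcr2 had 313 ± 32.3 in untreated and 339 ± 34.7 in IL-4-treated BMDMs. The arrays overlap within the error, and the log2 difference of 0.01 (spot SD 0.08) changed sign under 2 of the other settings, to -0.14 with normexp and -0.04 with the 75th percentile taken over probes that both arrays detected.

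**Figure D3:**
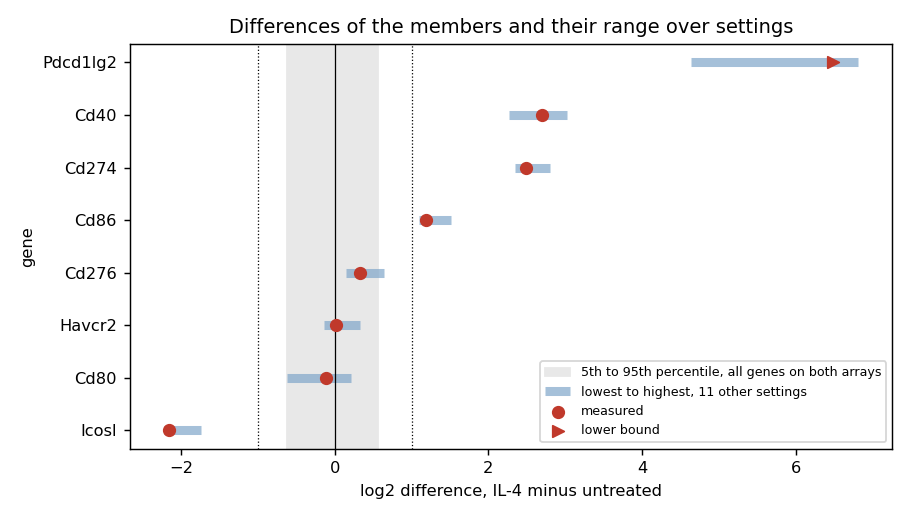
Log2 difference, IL-4 minus untreated, of the 8 members with a difference (red circles, or a triangle for the lower bound of Pdcd1lg2), with blue bars from the lowest to the highest value under 11 other settings and a grey band for the 5th to 95th percentile of all genes measured on both arrays. Dotted lines mark 2-fold. Pdcd1lg2, Cd40, Cd274 and Cd86 stay to the right of 2-fold and Icosl to the left in every setting drawn.

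**Figure D4:**
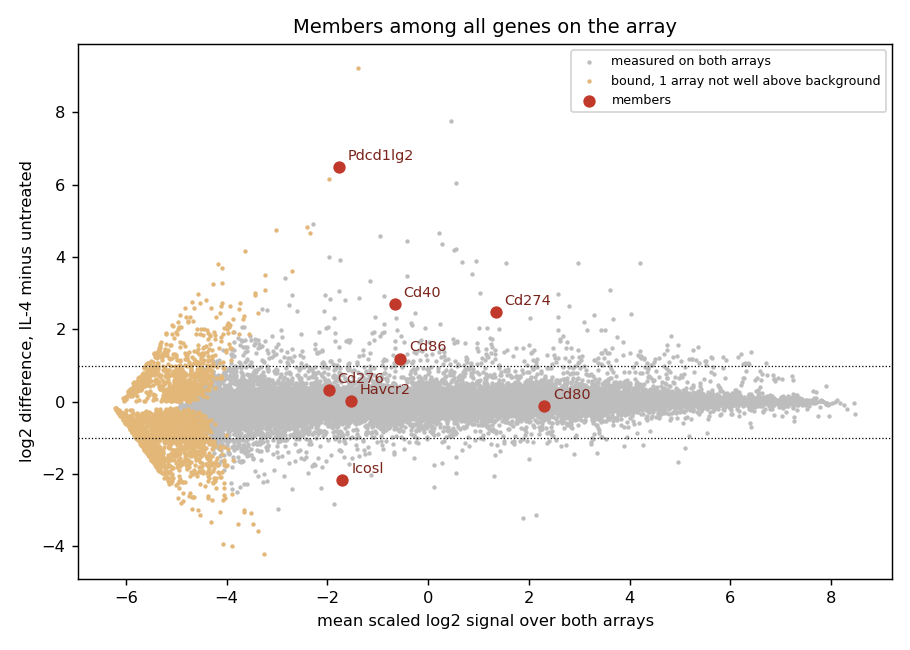
Log2 difference against the mean scaled log2 signal over both arrays for all genes with a difference, measured on both arrays (grey) or as a bound (orange), with the 8 members in red and dotted lines at 2-fold. Pdcd1lg2 lies above nearly all genes, and Cd80, Cd276 and Havcr2 lie within the main body of points.

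The receptors and partners of these ligands, and related genes, were read from 8 lists with 63 genes. Of these, 61 were on the array and 40 were detected on 1 array or both. At least 2-fold higher were 3 of these, Btn1a1, Lag3 and Slamf8, and at least 2-fold lower were 2, Cmtm4 and Tnfsf14. Array-wide, 60.8% of genes were detected on 1 array or both. Of those, 2.86% passed the 2-fold line upward and 4.47% downward. With so few list genes past that line, and lists chosen with earlier results known, no excess over the array is read from them. The calls in the lists depend on the processing. With normexp 1 higher call was left, Btn1a1, with Lag3 at 0.36 and Slamf8 at 0.99, and with spike-in scaling there were 5, with Traf5 and Slamf6 added. The lower calls numbered 0 after median scaling, quantile normalization, cyclic loess, spike-in scaling or normexp. They numbered 1 with no scaling and 3 with the percentile taken over probes that both arrays detected, where Cd28 was added at -1.04. In the list of T cell receptors and related T cell genes, not all of which bind a B7 ligand, 1 of 8 was measured on both arrays. Cd28, the receptor of CD80 and CD86, had 1271 in untreated and 689.9 in IL-4-treated BMDMs, a log2 difference of -0.98 or 1.97-fold lower. Ctla4 and Pdcd1 were dim, at 47.0 and 38.3 in untreated BMDMs, and not detected after IL-4, so their log2 differences are bounds, -0.85 or below and -0.56 or below, that leave the side of 2-fold undecided. Lag3, an inhibitory receptor of T cells that binds MHC class II, had 23.5 in untreated BMDMs, not detected, and 95.3 after IL-4, at least 3.04-fold higher. Icos and Cd40lg, the partners of Icosl and Cd40, and Btla and Cd160 were detected on neither array. Of the T cell markers, 2 of 5 were detected on both arrays, Cd3e with a log2 difference of -0.31 and Cd4 with -0.0018 at its brighter probe, while Cd3d, Cd3g and Cd8a were not detected. The dimmer Cd4 probe had 39.9 in untreated BMDMs and was not detected after IL-4, a bound of -0.61 or below. The summed signal of the T cell markers was 895 untreated and 866 after IL-4, and their part in these values was not tested.

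Among the partners of the PD-1 axis, Cmtm6, whose product stabilises PD-L1 at the surface, had a log2 difference of 0.19, and its relative Cmtm4 had -1.04 at the brighter probe and -0.27 at the dimmer one. Rgmb, a further receptor of PD-L2, was detected on neither array. In the list of B7-related proteins and butyrophilins, 5 of 12 were measured on both arrays, with a median of 0.03. Btn1a1, a butyrophilin, was 2.30-fold higher at 1.20, while the B7-related checkpoint gene Vsir, which encodes VISTA, had -0.64 and -0.85 at its probes and the complement receptor gene Vsig4 had 0.28. Of the TIM family and the TIM-3 ligands, Lgals9, which encodes galectin-9, had -0.35 and Hmgb1 0.01 at the brightest of its 7 probes, which ranged from -0.52 to 0.11, while Havcr1, Timd2 and Timd4 were detected on neither array.

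For the CD40 signalling list, 9 of 9 genes were measured on both arrays, 0 of them at least 2-fold changed, with a median of 0.20. Traf5, an adaptor that binds CD40, had the highest value at 0.94 and passed 2-fold with no scaling at 1.04, with median scaling at 1.15 and with spike-in scaling at 1.26. Traf1 had 0.31, and Map3k14, the kinase of the alternative NF-kB pathway, had the lowest at -0.27. The nectin ligands of TIGIT and CD226 lay between -0.20 and 0.14, with Pvr at 0.14 and Nectin2 at -0.18. Of the TNF superfamily costimulatory ligands, Tnfsf9, the ligand of 4-1BB, had -0.26, and Tnfsf14, at 61.5 in untreated BMDMs and not detected after IL-4, was at least 2.18-fold lower. In the SLAM family, 8 of 9 were measured on both arrays with a median of -0.01. Slamf8, a SLAM receptor of myeloid cells, was 2.23-fold higher at 1.16, Slamf6 had 0.73 at its brighter probe and 1.56 or more at the other, which was not detected in untreated BMDMs, and Slamf9 had -0.69.

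**Figure D5:**
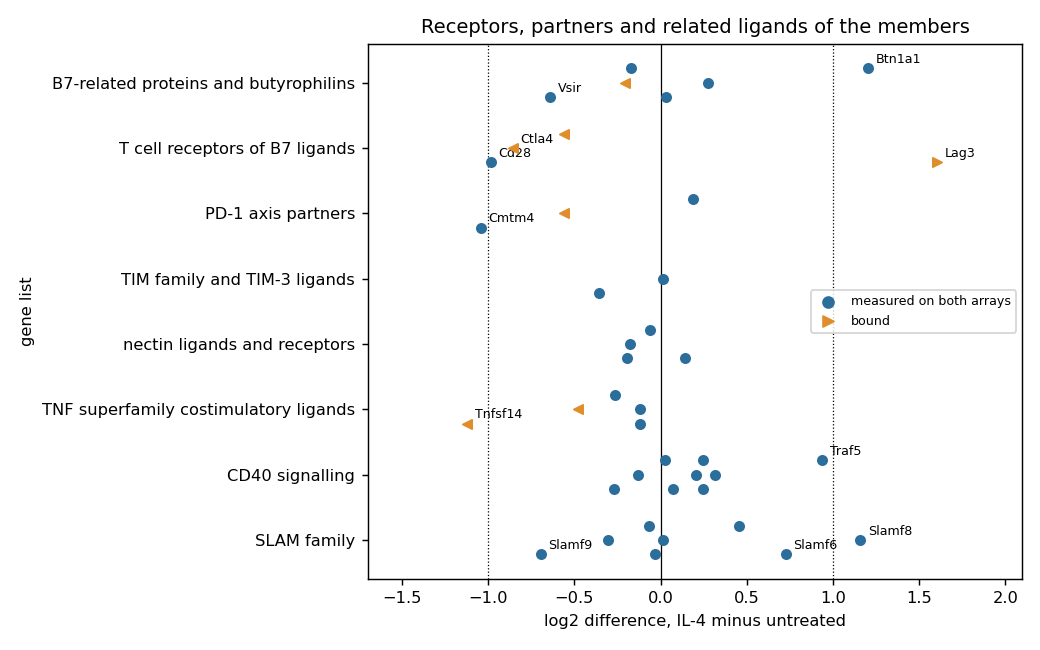
Log2 difference, IL-4 minus untreated, of the genes in each of the 8 lists of receptors, partners and related ligands that were detected on at least 1 array (blue circles measured on both arrays, orange triangles bounds that point away from zero), read from the brightest probe of each gene. Dotted lines mark 2-fold. Btn1a1, Lag3 and Slamf8 lie to the right of them and Cmtm4 and Tnfsf14 to the left, and the CD40 signalling genes lie between them.

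Cd86, Cd40 and the PD-1 ligands are also expressed by dendritic cells. Of the 8 dendritic cell markers, 4 were detected on both arrays. Itgax had a log2 difference of 0.72, Zbtb46, a transcription factor of classical dendritic cells, -0.52 at signals of 48.2 and 36.1, Ccr7 -0.09 and Siglech, a plasmacytoid dendritic cell marker, 0.02 at 29067 and 31659 (its other probe was not detected), while Flt3, Xcr1, Clec9a and Cd209a were detected on neither array. The summed signal of the dendritic cell markers was 44066 untreated and 58002 after IL-4, most of it from Siglech and Itgax. Of the B cell markers reported, Cd79a, Ms4a1 and Pax5 were detected on neither array, and Cd79b had -0.36. Of the fibroblast markers, 5 of 5 were detected on both arrays with log2 differences from -0.47 to -0.03. Their summed signal, before scaling, was 327461 untreated and 319136 after IL-4, of which Col1a2 alone gave 233342 and 234332. Of the granulocyte markers, 4 of 5 were detected on both arrays, between -0.23 and 0.37, with a summed signal of 1826 untreated and 2004 after IL-4. The part of such cells in the members' values was not tested.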

How the data were processed

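Total RNA of untreated and IL-4-treated BMDMs was labelled with Cy3 and hybridised to 1 Agilent array each, and arrays were assigned to conditions by their titles. Feature Extraction 10.10.1.1 produced the scanner files that the authors deposited, which hold a background-subtracted intensity for each spot and flags, including a column of 0 or 1 for well above background (a score set by the software). A table of log2 values, processed by the authors, was deposited too; its columns have medians of 0.16 and 0.016, with unstated centring, and its IL-4 minus untreated differences matched the scanner's for all 10 member probes within 0.01 after a constant offset. The array design was annotated on mm9.

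From the intensity, control spots and outlier spots were left out, spots of 1 probe were averaged on the log2 scale, and each array was centred on its 75th percentile (9.84 and 9.94). A gene was read from its brightest probe. Where 1 array was not well above background, the difference is a bound, and where neither was, none is given. Of 39429 probes, 27234 were matched by RefSeq accession to 20659 symbols of a GRCm38.p6 table. Ceacam1, Tnfsf13, Cd68, Trac and Ly6g were matched to no probe. One B cell marker is not reported here. With 1 array per condition no test was run, and precision is limited by that number. Members, lists (B7-related, T cell receptors, PD-1 axis, TIM, nectin, TNF superfamily, CD40 signalling, SLAM, M2 and cell type markers) and alternatives were chosen with earlier results of these data known. Named were all members, list genes at least 2-fold changed or acting as direct partners, the M2 markers and the genes next to Pdcd1lg2 in order of difference; the others were chosen after their values were seen. Scaling alternatives used limma 3.58.1 in R 4.3.3, and all else used pandas 2.3.3 and numpy 2.4.6 in Python 3.11.15; normexp (offset 50) took the median pixel signal of a spot.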

Additional observations from a re-analysis of the deposited data

How the results depend on the processing

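The count of members at least 2-fold higher, 4, was 4 under 14 of the 16 alternatives, and 3 when only genes well above background on both arrays were kept or the cutoff was 4-fold. The count lower, 1, was 1 in all 16. Alternatives that choose among probes could not change the 8 members with 1 probe. The authors' values match the scanner's up to a constant offset, so they are no separate check. No paired analysis was possible because there is a single array for untreated and for IL-4-treated BMDMs, and no replicate could be left out. Over the scalings run, Pdcd1lg2 lay between 6.43 and 6.81, Cd274 between 2.43 and 2.80, Cd40 between 2.65 and 3.02, Icosl between -2.22 and -1.84, Cd276 between 0.27 and 0.65 and Havcr2 between -0.04 and 0.33. Normexp gave 4.63, 2.35, 2.27, -1.74, 0.14 and -0.14 for these. Over the same scalings Cd86 lay between 1.138 and 1.51, with 1.099 under normexp. The brighter Cd80 probe lay between -0.18 and 0.21, with -0.05 under normexp. Median scaling and spike-in scaling move the median of all genes measured on both arrays from -0.01 to 0.20 and 0.31, so they shift every gene together. Higher genes made up 39.0% of all called genes in the setting reported, 59.5% with median scaling, 60.1% with quantile normalization, 52.3% with cyclic loess, 48.8% with no scaling, 69.0% with spike-in scaling and 52.6% with normexp, while 519 were higher and 1008 lower with the percentile over probes that both arrays detected. Normexp also left far fewer calls, 297 higher and 268 lower, against 564 and 883 in the setting reported. The list genes at least 2-fold higher, 3, numbered 5 with spike-in scaling, 4 with median scaling or no scaling, and 1 with normexp. Those lower, 2, numbered 0 with median scaling, quantile normalization, cyclic loess, spike-in scaling and normexp, and 1 with no scaling. They numbered 3 with the percentile over probes that both arrays detected, where Cd28 had -1.04. The cause was not tested. Searching only the bases before the start left the motif counts of the members as they were. Signals near 29.2 on the untreated and 27.9 on the IL-4 array, the lowest that were well above background, limit what can be measured for Pdcd1lg2, Ctla4, Pdcd1 and Lag3.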

Other observations

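The genes beside the other members on their chromosomes were read in the same way, up to 4 protein-coding genes on each side in annotation order, chosen after the members' values were seen. Around Icosl on chromosome 10, 7 neighbours were measured on both arrays, with log2 differences from -0.55 to 0.59, against -2.16 for Icosl. The genes directly beside it, Dnmt3l and Gatd3a, had -0.55 and 0.05. Around Cd86 on chromosome 16, the 4 measured neighbours lay between -0.77 and -0.18 in the scaling reported, against 1.19 for Cd86. Of these neighbours, Stfa2, Slc15a2 and Iqcb1 were dim, with untreated signals of 112, 112 and 91.2. Around Cd80 on the same chromosome, the 6 measured neighbours lay between -0.11 and 0.21. Around Cd40 on chromosome 2, Ncoa5 had -0.01, Mmp9, a matrix metalloproteinase gene, had -0.11 and Slc35c2 had 0.10, while Zfp663 was at least 2-fold lower at -1.11. Around Vtcn1 on chromosome 3, all 8 neighbours were measured, and Cd101, an immunoglobulin family receptor gene of myeloid cells, was at least 2-fold lower at -1.43 where Tent5c had 0.94. In the promoter table, the STAT6-type element (TTC, any 4 bases, GAA) was held by 7.67% of the 339 genes at least 2-fold higher, 6.30% of the 365 at least 2-fold lower and 6.79% of all 11207 genes with a promoter that were well above background on at least 1 array, given as a description with no test.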
